A study of Mus musculus with 12 samples.

Results

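P2+ and P2- PreMegEs are the cells of the mouse bone marrow PreMegE gate, the progenitors that can give megakaryocytes and erythroid cells, sorted apart by whether the proximal promoter of Runx1 was active. Of the 12 libraries of the series, the 6 of these fractions (3 P2+ and 3 P2-) were compared by RNA-Seq, and of 41128 genes in the count table the 12836 with at least 1 CPM (counts scaled to one effective library size by TMM) in at least 3 of them were tested. All 6 libraries came from C57BL/6 mice of the genotype Runx1 P1-GFP::P2-hCD4/+, 12 to 16 weeks old, in which 1 Runx1 allele carries both reporters, GFP for the distal promoter P1 and a truncated human CD4 for the proximal promoter P2, so that the reporter allele is shared by both fractions. The gate took lineage-, SCA1- and CD16/32-negative, cKIT+ and CD150+ cells without CD41 or Endoglin, all of them P1+, and each library pooled the cells of 3 mice. The libraries carry the replicate numbers 1 to 3 in each fraction, and the same number was treated as a pair. Values of 3 libraries are given below in the order of replicates 1, 2 and 3.

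RUNX1 is a transcription factor that binds DNA with its partner CBFβ and is needed for blood stem cells to form in the embryo and for megakaryocytes to mature in the adult. Its gene is read from a pair of promoters, and the transcripts from P1 and P2 give proteins with different N-termini. A progenitor at the point where megakaryocytic and erythroid fates part still carries low levels of transcripts of other lineages, known as lineage priming, alongside the machinery of division, ribosome production and metabolism. These programs, rather than the lead megakaryocytic and erythroid genes, are described here. Several of their gene lists share members with the megakaryocyte or erythroid list, among them Klf1, Epor, Blvrb, Slc35d3, Selp, F2rl2 and Meis1. The counts of such lists therefore partly repeat the change of the lead genes.

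The 2 promoters whose activity defines the sort are shown first, as 300-base windows from 250 bases before to 50 bases after a RefSeq start, read on the strand of the gene in build GRCm38.p6. P1 lies at chr16:92826025-92826324 and P2 at chr16:92697280-92697579, both on the minus strand. Capitals mark matches, on either strand, to the motifs searched. These were TGTGGT for RUNX, CCGGAAGT for ETS, CCNCNCCC for KLF, TGACGTCA for the cyclic AMP response element, TTTCCCGC for E2F and CCAAT for NFY factors. For factors of the GATA family the motif searched was AGATAA, and KLF matches can overlap each other.
Runx1 P1: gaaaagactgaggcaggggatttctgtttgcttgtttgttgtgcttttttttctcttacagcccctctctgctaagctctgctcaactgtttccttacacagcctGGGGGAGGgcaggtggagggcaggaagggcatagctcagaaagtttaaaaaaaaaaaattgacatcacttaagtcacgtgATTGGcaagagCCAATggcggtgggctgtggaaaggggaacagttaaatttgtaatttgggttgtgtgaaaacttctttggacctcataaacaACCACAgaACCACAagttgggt
Runx1 P2: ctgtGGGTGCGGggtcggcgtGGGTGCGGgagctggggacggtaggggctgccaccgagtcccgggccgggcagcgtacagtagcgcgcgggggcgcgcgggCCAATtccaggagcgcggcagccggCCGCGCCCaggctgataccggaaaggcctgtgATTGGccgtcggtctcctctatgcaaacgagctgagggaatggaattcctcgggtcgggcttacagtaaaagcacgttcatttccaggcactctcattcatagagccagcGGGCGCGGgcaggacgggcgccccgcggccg
P1 held 2 RUNX matches, 29 and 37 bases into the transcribed part, whereas P2 held none. P1 held 1 KLF match and P2 held 4, and each window held 2 NFY matches. The study searched wider regions for motifs shared by mouse and human, and reported KLF1 motifs around P1 but not around P2. Conservation was not used here. A match is a stretch of letters and was not shown to be a site. Windows were found for 9322 of the 12836 genes tested. RUNX matches stood in 12.8% of these 11850 windows, KLF matches in 67.6%, NFY in 38.1%, ETS in 8.46%, GATA in 6.47%, the cyclic AMP response element in 3.11% and E2F in 2.06%.

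The libraries held between 10726098 and 14445026 counts, and 3 counts, the most that an observed 0 allows, corresponded to between 0.206 and 0.287 CPM, which covers counting error only. The reporter was not among the counted genes, and Runx1 itself, counted over both promoters, had 211, 201 and 214 CPM in P2- and 658, 619 and 613 in P2+. All P2+ libraries were above all P2- libraries (log2 fold change 1.59, SE 0.052, edgeR adjusted p = 3.19e-11). Among genes of the gate, Kit had 1094, 907 and 1141 CPM in P2- and 829, 730.3 and 878 in P2+, lower in P2+ (log2 fold change -0.36, SE 0.045), and Slamf1 (CD150) was not called (log2 fold change 0.084, SE 0.087). Itga2b (CD41), whose protein the gate excluded, was higher in P2+ at 253 to 320 CPM against 38.2 to 60.7. Cd3e and Cd8a were at 0 counts in all 6 libraries, and Fcgr3 (CD16) was at or below 1.51 CPM. Itgam (CD11b), a lineage marker of the gate, had 1.02, 3.54 and 2.93 CPM in P2- and 6.95, 5.64 and 7.16 in P2+, without overlap. Eng (Endoglin), whose protein the gate excluded, had 111, 114 and 150.5 CPM in P2- and 93.8, 94.9 and 122.7 in P2+. Fcgr2b (CD32), whose protein the gate also excluded, had 6.91, 8.12 and 7.45 CPM in P2- and 17.1, 16 and 16.7 in P2+ and was higher in P2+ (log2 fold change 1.15, SE 0.16, edgeR adjusted p = 6.09e-05). Xist and Y-linked genes matched within each pair and differed between pairs (Xist at 703 and 831 CPM in pair 1, 0 and 5.16 in pair 2 and 2694 and 2175 in pair 3, P2- first). The Y-linked Ddx3y had 60.3 and 60.9 CPM in pair 1, 105.6 and 71.3 in pair 2 and 0 in both libraries of pair 3. By these genes the pairs differed in the sex of the mice, which cannot be told apart from other differences between pairs. Both libraries of replicate 2 stood apart by high immediate early genes, which are described after the other programs. The count of a gene list is given without a pair, or without the block, where that moved it by over 1.5 times.

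With the pair as a block, 6513 of 12836 genes (50.7%) passed an adjusted p of 0.05 in edgeR's quasi-likelihood test with Benjamini-Hochberg adjustment. Of all genes, 25.9% were called higher (3324) and 24.8% lower (3189) in P2+ PreMegEs, and these shares are the background against which the counts of any program below are read. A change of at least 2-fold was reached by 1333 genes upwards (10.4%) and 444 downwards (3.46%), so 75% of the 2-fold calls were higher in P2+. The 3 pairs went the same way in 6452 of the 6513 called genes (99.1%), against 69.7% of all genes, and the 3 libraries of one fraction did not overlap with those of the other in 5556 of them (85.3%), against 49.9% of all genes. The log2 differences of the pairs correlated across the 12836 genes at between 0.815 and 0.839, which describes genes of the same 6 libraries and not independent replicates. Of the lists of lead genes, 24 of 29 megakaryocyte genes tested rose and 1 fell, while 3 of 30 erythroid genes rose and 23 fell. Without pair 2, 2 megakaryocyte genes fell.

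**Figure D1:**
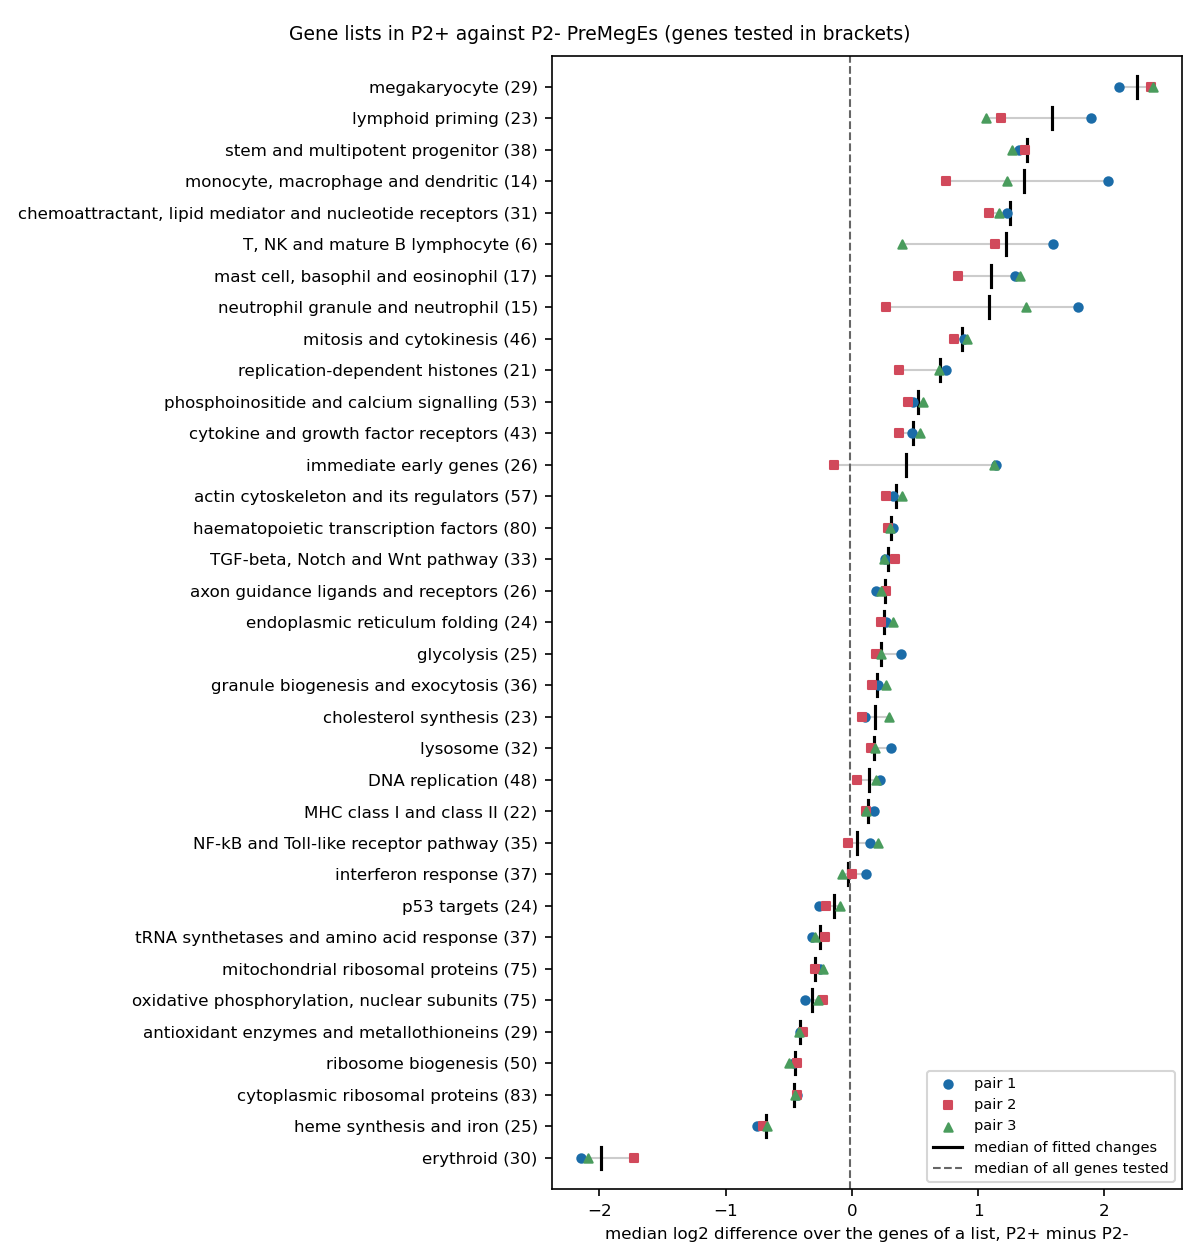
Median log2 difference (P2+ minus P2-) over the genes of each of 35 lists, with the number of genes tested in brackets. Coloured points are the medians within pairs 1, 2 and 3, black bars the medians of the fitted changes, and the dashed line is the median of all genes, -0.02. The neutrophil list (0.27 in pair 2 to 1.79 in pair 1), the monocyte list (0.74 to 2.03) and immediate early genes (-0.14 to 1.14) differ most between pairs, while the ribosome and mitosis lists lie close together.

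Genes known from stem cells and multipotent progenitors were among the programs higher in P2+ PreMegEs. Of 38 such genes tested, 31 rose, 24 of them at least 2-fold, 1 fell and 6 were not called, with a median log2 fold change of 1.39 against -0.02 for all genes. The median was 1.32, 1.38 and 1.27 in the pairs. Tie1, an endothelial and stem cell receptor tyrosine kinase, had 6.76, 10.8 and 9.68 CPM in P2- and 60.4, 67.7 and 72.3 in P2+, without overlap (log2 fold change 2.89, SE 0.12, edgeR adjusted p = 2.51e-10). Mecom, which encodes the stem cell factor EVI1, had 3.77, 7.17 and 9.61 CPM in P2- and 32.9, 35.9 and 39.7 in P2+ (log2 fold change 2.44, SE 0.18), and Mycn, a MYC family factor, had 56, 33.3 and 44.9 CPM in P2- and 196, 144 and 212 in P2+ (log2 fold change 2.05, SE 0.082). Txnip, which binds thioredoxin and restrains glucose uptake, was the list's member that fell, from 1591, 1147 and 1365 to 884, 869 and 830.3 CPM (log2 fold change -0.66, SE 0.067), in each pair. The list was not uniform, since Slamf1, Lyl1, Mllt3, Hoxb4, Egfl7 and Gata2 differed by no more than 0.22 on the log2 scale and were not called.

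Over 80 transcription factors of haematopoiesis, 40 rose and 18 fell (median 0.31). Among the genes that rose was Ets1, an ETS factor of lymphoid cells, with 11.5, 7.55 and 6.89 CPM in P2- and 51.1, 36.5 and 37.1 in P2+ and no overlap (log2 fold change 2.27, SE 0.12, edgeR adjusted p = 4.70e-09). Hif3a, a member of the hypoxia-inducible factor family, fell, with 122.6, 94.5 and 173 CPM in P2- and 17.2, 13.3 and 21.6 in P2+. All its P2+ libraries were below all its P2- libraries (log2 fold change -2.89, SE 0.081, edgeR adjusted p = 9.22e-12). Klf1, the erythroid Krüppel-like factor, had 431, 352 and 372 CPM in P2- and 58.2, 58.4 and 59.6 in P2+ (log2 fold change -2.71, SE 0.068, edgeR adjusted p = 4.43e-12). Nfia, a factor tied to erythroid fate, fell by 1.75 on the log2 scale (SE 0.082), with 135, 122 and 136 CPM in P2- and 40.2, 41.6 and 35.1 in P2+.

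Myeloid transcripts were mostly higher in P2+. Of 14 genes of monocytes, macrophages and dendritic cells, 10 rose and 2 fell (median 1.37), and of 15 of neutrophils and their granules 8 rose and 2 fell (median 1.09). None of the neutrophil genes fell without the block or without pair 1 (edgeR), and 1 fell without pair 3. Csf3r, the G-CSF receptor, had 4.32, 4.68 and 5.01 CPM in P2- and 39.4, 32.8 and 33.7 in P2+. Its fractions were far apart in each pair (log2 fold change 2.91, SE 0.15, edgeR adjusted p = 2.86e-09). Lyz2, encoding lysozyme, had 40.9, 53.4 and 32.9 CPM in P2- and 175, 185 and 192 in P2+ (log2 fold change 2.14, SE 0.11, edgeR adjusted p = 2.15e-09). Mpo, the peroxidase of neutrophil granules, had 9.74, 16.6 and 7.1 CPM in P2- and 185, 52.3 and 75.5 in P2+. The P2+ libraries were all higher but spread widely, with replicate 1 highest (log2 fold change 3.11, SE 0.31, edgeR adjusted p = 2.18e-06). F13a1, a transglutaminase of monocytes and platelets, had 4.32, 1.82 and 1.81 CPM in P2- and 37.9, 6.81 and 10.6 in P2+ (log2 fold change 2.65, SE 0.24, edgeR adjusted p = 8.69e-07), again with replicate 1 highest. Irf8, the factor of the monocyte and dendritic lineages, had 8.95, 5.83 and 3.13 CPM in P2- and 39.8, 7.5 and 7.77 in P2+. Its fractions overlapped, and its call (log2 fold change 1.37, SE 0.27, edgeR adjusted p = 8.71e-04) was lost without pair 1 and without the block (edgeR adjusted p = 0.0884).

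Not every myeloid gene followed. Zbtb46, a marker of classical dendritic cells that is also known from erythroid progenitors, was nearly absent from P2+, with 46.3, 28.9 and 32.5 CPM in P2- and 2.76, 1.24 and 0.991 in P2+ and no overlap (log2 fold change -4.46, SE 0.19, edgeR adjusted p = 5.06e-10). Cx3cr1, the fractalkine receptor, had 12.7, 10.6 and 10.2 CPM in P2- and 8.71, 3.17 and 3.05 in P2+ (log2 fold change -1.29, SE 0.26, edgeR adjusted p = 9.65e-04). Transcripts of late neutrophil granules had another pattern. Ngp had 2.28, 41.8 and 3.97 CPM in P2- and 0.167, 30.8 and 0.0762 in P2+, S100a9 had 2.2, 11.4 and 1.74 CPM in P2- and 0.335, 9.29 and 0.0762 in P2+ and S100a8 had 0.55, 11.6 and 1.67 CPM in P2- and 0.502, 8.33 and 0.61 in P2+. For each of these genes both libraries of replicate 2 stood above the other 4. Ngp and S100a9 were called lower (log2 fold change -1.31, SE 0.45 and log2 fold change -1.39, SE 0.51), but not without the block (edgeR adjusted p = 0.792 and 0.735), nor without pair 1, and S100a8 was not called. The summed level of the neutrophil list was 90.2, 198 and 86.7 CPM in P2- and 507, 399 and 379 in P2+. Ly6g, a surface marker of neutrophils, was at no more than 5 counts in any library, whereas Itgam (CD11b) was higher in P2+, as given above. The part of other cells in these levels was not tested. In bulk RNA, more cells of a type and more RNA per cell cannot be told apart.

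Genes of mast cells, basophils and eosinophils rose in 12 of 17 cases and fell in 2 (median 1.11), and 1 fell without the block, without pair 2 or without pair 3. Ptgs1, the cyclooxygenase also of platelets, had 7.93, 7.36 and 9.75 CPM in P2- and 82.8, 79.4 and 92.1 in P2+, without overlap (log2 fold change 3.34, SE 0.10, edgeR adjusted p = 1.66e-11). Csf2rb, the β chain shared by the receptors for IL-3, IL-5 and GM-CSF, had 4.24, 3.73 and 7.94 CPM in P2- and 62.5, 27.4 and 51.7 in P2+ (log2 fold change 3.14, SE 0.19, edgeR adjusted p = 1.29e-08), and its near-identical copy Csf2rb2 had 1.65, 1.24 and 2.79 CPM in P2- and 22, 9.98 and 16.8 in P2+, so that reads could be split between them. Fcer1a, the α chain of the IgE receptor, was at 0 counts in all P2- libraries and at 19, 39 and 19 counts in P2+, at least 7.83-fold higher against the limit of 3 counts per library. Il1rl1, the IL-33 receptor, went the other way, with 386, 336 and 379 CPM in P2- and 153, 122.7 and 82.9 in P2+ and no overlap (log2 fold change -1.65, SE 0.12, edgeR adjusted p = 7.37e-08). Mcpt8 and Cma1, proteases that define mature basophils and mast cells, were not among the genes tested.

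Lymphoid genes were also mostly higher in P2+, with 18 of 23 raised, 1 lowered and a median of 1.59. Rag1, the recombinase of early lymphocytes, had 4.95, 2.1 and 1.67 CPM in P2- and 28.5, 13.8 and 3.43 in P2+ (log2 fold change 2.21, SE 0.28, edgeR adjusted p = 2.14e-05), and Ighm, the immunoglobulin μ constant region, had 14.3, 8.03 and 7.66 CPM in P2- and 58.3, 21.9 and 17.3 in P2+ (log2 fold change 1.59, SE 0.16, edgeR adjusted p = 2.79e-06). For both genes P2+ replicate 1 was the highest and each pair had P2+ above P2-. The fractions overlapped for Rag1 (P2+ replicate 3 lay below P2- replicate 1) and did not for Ighm. Ikzf1, encoding Ikaros, an abundant factor of lymphoid and erythroid progenitors, was the member that fell, with 920.4, 936 and 892 CPM in P2- and 564, 571 and 494 in P2+ and no overlap (log2 fold change -0.76, SE 0.049, edgeR adjusted p = 2.56e-08). The summed level of the list, in which Ikzf1 was the most abundant gene, did not follow the median, at 1.05, 0.851 and 0.842 times the P2- sum in the 3 pairs. With a filter of at least 5 CPM in 3 libraries, 9 lymphoid, 4 monocyte and 5 neutrophil genes rose, since fewer genes were then tested.

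**Figure D2:**
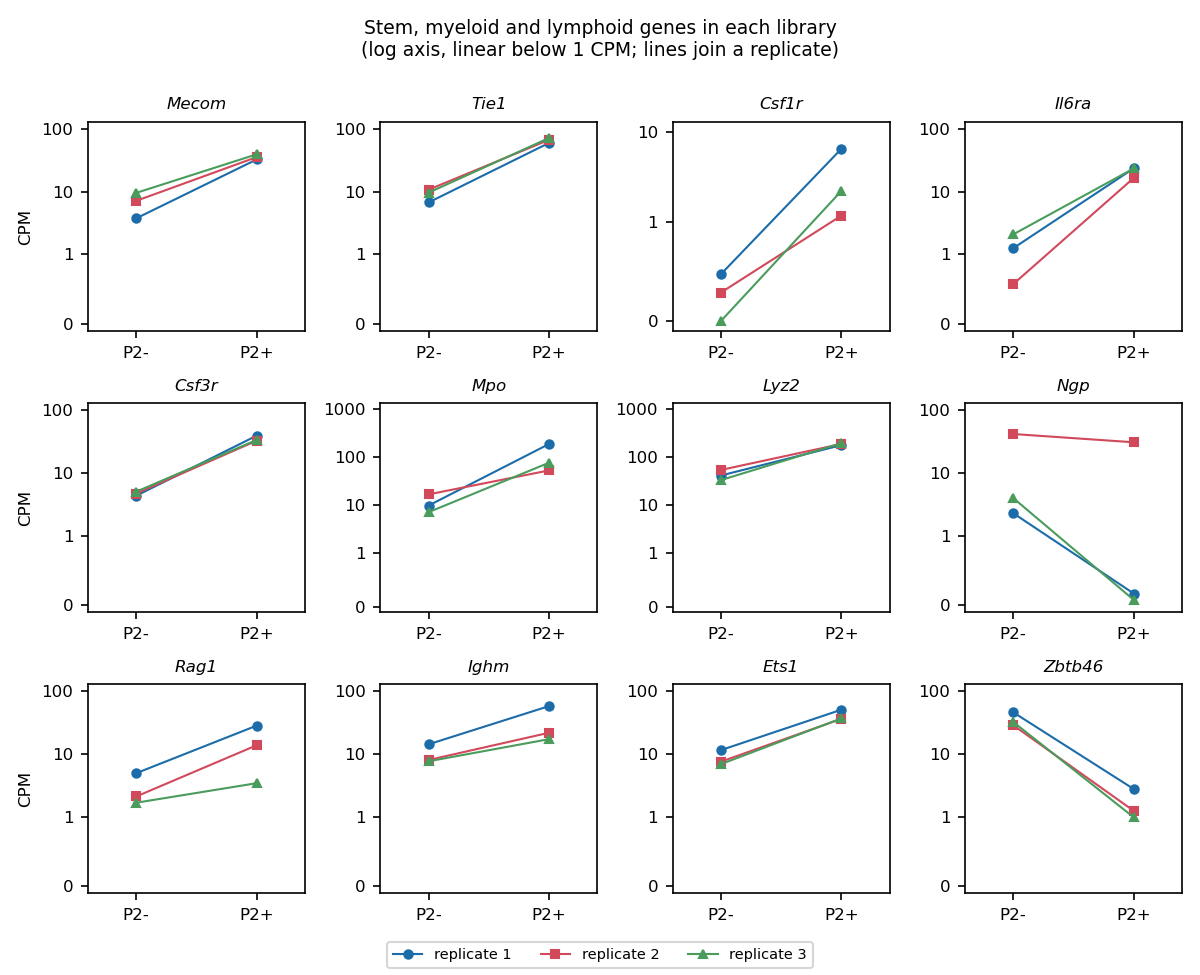
CPM of 12 stem, myeloid and lymphoid genes in each library (symmetric log axis, linear below 1 CPM), with a line joining the P2- and P2+ library of each replicate. Mecom, Tie1 and Csf3r rise in all 3 pairs, Mpo and Rag1 vary between P2+ replicates, Ngp follows replicate 2 (41.8 and 30.8 CPM), and Zbtb46 falls from 28.9 to 46.3 CPM to at most 2.76 CPM.

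Surface receptors for soluble signals changed in both directions. Of 43 cytokine and growth factor receptors, 24 rose, 15 of them at least 2-fold, and 9 fell (median 0.48), and of 31 receptors for chemoattractants, lipid mediators and nucleotides, 24 rose, 18 at least 2-fold, and 2 fell (median 1.25). Il6ra, the ligand-binding chain of the IL-6 receptor, had 1.26, 0.573 and 2.09 CPM in P2- and 23.7, 16.7 and 23.6 in P2+ and no overlap (log2 fold change 4.01, SE 0.24, edgeR adjusted p = 1.40e-08). Its signalling partner Il6st (gp130) had 21.2, 16 and 16.6 CPM in P2- and 69.5, 40.4 and 59.6 in P2+ (log2 fold change 1.64, SE 0.11, edgeR adjusted p = 4.38e-08). Epor, the erythropoietin receptor, fell by 1.62 on the log2 scale (SE 0.082), with 112, 90.6 and 118 CPM in P2- and 33.1, 33.6 and 37.3 in P2+. Ifngr1, a chain of the interferon-γ receptor, had 457, 379 and 436 CPM in P2- and 161, 183 and 155 in P2+ (log2 fold change -1.35, SE 0.079, edgeR adjusted p = 9.32e-09). The summed level of the cytokine receptors was below that of P2- (0.874, 0.909 and 0.858 times in the 3 pairs) although the median was above 0, Kit being its most abundant member and lower in P2+.

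Among the chemoattractant and lipid receptors, Cxcr2, the receptor for neutrophil-attracting chemokines, had 1.34, 1.34 and 3.2 CPM in P2- and 20.9, 12.8 and 39 in P2+ (log2 fold change 3.63, SE 0.20, edgeR adjusted p = 5.27e-09). Tbxa2r, the thromboxane receptor of platelets, had 2.04, 2.01 and 3.41 CPM in P2- and 21.2, 17.1 and 29.7 in P2+ (log2 fold change 3.19, SE 0.18, edgeR adjusted p = 8.58e-09). Both were higher in each pair and did not overlap. Cysltr1, a cysteinyl leukotriene receptor, was at 0 counts in every P2- library and 23, 26 and 30 in P2+, at least 8.21-fold higher. S1pr4, a sphingosine 1-phosphate receptor of blood cells, was the largest fall, with 187, 171 and 167 CPM in P2- and 67.6, 63 and 63.5 in P2+ (log2 fold change -1.44, SE 0.061, edgeR adjusted p = 4.22e-10). Sphk1, the kinase that makes sphingosine 1-phosphate, fell further, with 102, 65.7 and 90.9 CPM in P2- and 2.09, 0.757 and 0.991 in P2+ (log2 fold change -6.1, SE 0.16, edgeR adjusted p = 5.12e-12).

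Genes of mitosis and cytokinesis rose almost without exception. Of 46 genes, 44 rose, 15 of them at least 2-fold, none fell (0 also at an unadjusted p under 0.05 in edgeR and 0 by DESeq2), and Cenpa and Pttg1 were not called (edgeR adjusted p = 0.898 and 0.191). The median of the list was 0.87, and 0.89, 0.81 and 0.91 in the pairs. Kif23, a kinesin of the cytokinetic midzone, had 13.7, 15.6 and 13.4 CPM in P2- and 41.3, 44.3 and 37 in P2+ (log2 fold change 1.52, SE 0.11, edgeR adjusted p = 8.08e-08). Prc1, its partner that bundles midzone microtubules, had 67.8, 73.7 and 73.9 CPM in P2- and 181, 164 and 186 in P2+ (log2 fold change 1.3, SE 0.067, edgeR adjusted p = 2.84e-09). Mki67, the proliferation marker Ki-67, had 1091, 1170.4 and 1258 CPM in P2- and 1987, 1897 and 2153 in P2+ (log2 fold change 0.78, SE 0.045, edgeR adjusted p = 9.24e-09). None of these overlapped between fractions. The summed level of the 46 genes was 3562, 3297 and 3525 CPM in P2- and 6668, 5722 and 6560.4 in P2+.

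Genes of DNA replication moved much less. Of 48, 19 rose, 4 fell and 25 were not called, none reached 2-fold, and the median was 0.13. None fell without the block, and 2 fell without pair 1 or without pair 2, the median without pair 2 being 0.24. By edgeR's exact test without the block 8 rose and none fell. Tk1, thymidine kinase, rose most among those at 10 CPM or more, with 30.4, 23.8 and 23.8 CPM in P2- and 57.9, 37 and 50.8 in P2+ (log2 fold change 0.89, SE 0.11, edgeR adjusted p = 1.06e-05), and Cdc6, a loader of the replicative helicase, fell, with 75.1, 60.0 and 66.9 CPM in P2- and 57.2, 40.6 and 54.7 in P2+ (log2 fold change -0.41, SE 0.082, edgeR adjusted p = 8.62e-04), but not without the block (edgeR adjusted p = 0.052). The helicase subunits Mcm2 (437, 419.9 and 372 CPM in P2- and 447, 425 and 421 in P2+) and Mcm5 (174, 173 and 151 CPM in P2- and 175, 174 and 168 in P2+) were within 0.08 on the log2 scale of no difference. The difference between both lists was not tested as such. Of 21 replication-dependent histone genes, whose mRNAs mostly lack a poly(A) tail and are poorly captured by these libraries, 5 rose and 16 were not called (median 0.70), and 2 rose without pair 1, 3 without pair 3 and 1 without the block. The p53 targets were split, with 8 of 24 higher and 11 lower, and 4 were higher without pair 1, as many as without the block. Zmat3, an RNA-binding target of p53, had 75.3, 53.5 and 70.6 CPM in P2- and 16.3, 15.8 and 17.4 in P2+ (log2 fold change -2.0, SE 0.11, edgeR adjusted p = 3.55e-09), and Gadd45a, a growth arrest gene, had 75.8, 111 and 72.9 CPM in P2- and 20.3, 38.3 and 17.8 in P2+ (log2 fold change -1.81, SE 0.10, edgeR adjusted p = 5.90e-09), both lower in P2+ in each pair. Ckap2, also a mitotic gene, rose (log2 fold change 0.76, SE 0.079).

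Genes of ribosome production were lower in P2+ PreMegEs by small amounts. All 50 genes of ribosome biogenesis were called lower, none by 2-fold and none higher at an unadjusted p under 0.05 (0 by edgeR and 0 by DESeq2), with log2 fold changes between -0.97 (Rrp9) and -0.18 (Ubtf), and all 3 pairs were lower for every one of them. Rrp9, a component of the small subunit processome, had 29.5, 29.5 and 30.5 CPM in P2- and 14.7, 17 and 14.2 in P2+ (log2 fold change -0.97, SE 0.12, edgeR adjusted p = 2.03e-05). Ncl, nucleolin, had 1509, 1673 and 1519 CPM in P2- and 1153, 1293 and 1077 in P2+ (log2 fold change -0.42, SE 0.044, edgeR adjusted p = 3.67e-06). Npm1, nucleophosmin, had 211, 206 and 212 CPM in P2- and 149, 139.6 and 156 in P2+ (log2 fold change -0.50, SE 0.056, edgeR adjusted p = 6.69e-06). Of 83 cytoplasmic ribosomal protein genes, 57 were lower, 1 higher and 25 not called (median -0.46), and the summed share of the library fell from between 0.957% and 0.986% in P2- to between 0.699% and 0.765% in P2+. Ribosomal protein genes have many near-identical pseudogenes, and the treatment of reads with several alignments is not given in the sources used here, so their levels are uncertain. Small nucleolar RNAs, which guide modification of ribosomal RNA and lie mostly in introns of other genes, were called lower in 16 of 52 (median -0.75). None was higher, also at an unadjusted p under 0.05 in edgeR (0 of 52). Of all genes tested 24.8% were called lower, a share not far from theirs. The libraries were poly(A) selected, and whether these reads came from small nucleolar RNAs or from their host genes was not tested. Their count is given for the fit with the block only. Without the block, none of the ribosomal protein genes was higher, and 37 of them and 41 of the biogenesis genes were lower.

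Respiratory and mitochondrial translation genes were lower too, to a lesser extent. Of 75 nuclear genes of oxidative phosphorylation, 33 fell and 1 rose (median -0.31), and of 75 mitochondrial ribosomal protein genes 32 fell and none rose (median -0.29, with 0 higher at an unadjusted p under 0.05 in edgeR and 0 by DESeq2). Atp5b, the β subunit of ATP synthase, had 653, 643 and 629.7 CPM in P2- and 506, 516 and 509 in P2+, without overlap (log2 fold change -0.33, SE 0.047, edgeR adjusted p = 5.35e-05). Ndufs4, a complex I subunit, was the member that rose, with 9.11, 10.7 and 8.84 CPM in P2- and 14.8, 14.7 and 12.3 in P2+ (log2 fold change 0.54, SE 0.16, edgeR adjusted p = 0.0137), but not without pair 1. Mrpl52 had 11.3, 12.1 and 9.33 CPM in P2- and 2.26, 3.1 and 3.96 in P2+ (log2 fold change -1.81, SE 0.26, edgeR adjusted p = 5.22e-05). Without pair 1, 19 of the respiratory genes were lower, and without the block 21. The tRNA synthetases and genes of the amino acid response fell in 18 of 37 cases and rose in 3 (median -0.25). Asns, asparagine synthetase, had 20.0, 13.1 and 19.3 CPM in P2- and 8.12, 7.98 and 6.63 in P2+ (log2 fold change -1.19, SE 0.18, edgeR adjusted p = 1.20e-04), and Psat1, of serine synthesis, rose (log2 fold change 0.49, SE 0.055).

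**Figure D3:**
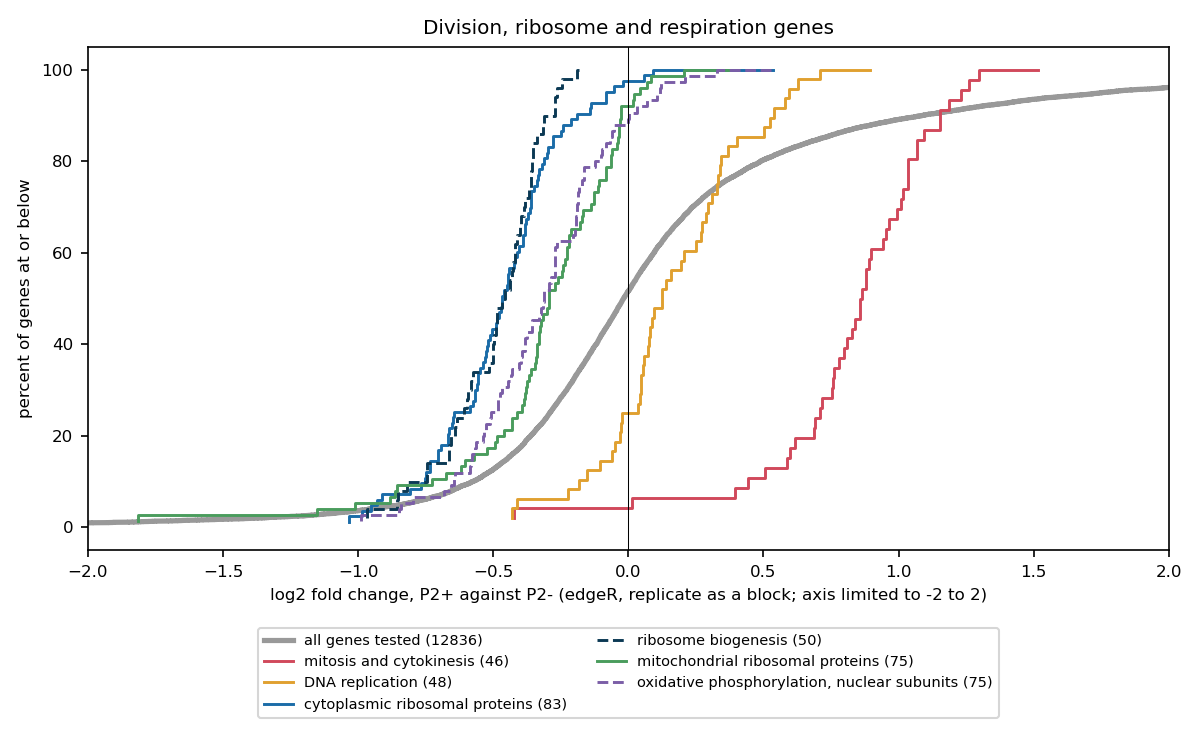
Cumulative percent of genes by log2 fold change (P2+ against P2-) for 6 lists and all 12836 genes tested, with the axis limited to -2 to 2. Over most of its range the mitosis curve lies to the right of the other lists (median 0.87), DNA replication close to 0 (0.13), and the 4 ribosomal and mitochondrial curves to the left (-0.46 to -0.29), the biogenesis genes wholly below 0.

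Glycolysis did not move as a unit, since 12 of 25 genes rose and 6 fell. The median was 0.23, 0.13 without the block, 0.11 to 0.36 with a pair left out and 0.40 with no filter beyond 1 count. Pkm, the pyruvate kinase of most tissues, had 54.8, 54.7 and 53.9 CPM in P2- and 215, 196 and 197 in P2+ (log2 fold change 1.9, SE 0.063, edgeR adjusted p = 3.93e-11), whereas Pklr, the liver and red cell pyruvate kinase, had 126, 89.2 and 121 CPM in P2- and 2.85, 2.0 and 1.3 in P2+ (log2 fold change -5.77, SE 0.15, edgeR adjusted p = 5.12e-12). Per length of exon, Pklr was at 34.7 RPKM against 10.9 for Pkm in P2- and at 0.632 against 40.6 in P2+, so the order of the pair turned. Among hexokinases, which trap glucose in the cell, Hk1 had 557, 552 and 597 CPM in P2- and 384, 418 and 408 in P2+ (log2 fold change -0.50, SE 0.051, edgeR adjusted p = 2.66e-06) and Hk2 had 36.3, 43.6 and 49 CPM in P2- and 64.5, 58.4 and 67.2 in P2+ (log2 fold change 0.57, SE 0.094, edgeR adjusted p = 2.09e-04). Slc2a1, the glucose transporter GLUT1, had 6.91, 16.3 and 12 CPM in P2- and 27.6, 38 and 44 in P2+ (log2 fold change 1.68, SE 0.15, edgeR adjusted p = 7.42e-07). The lactate carriers Slc16a3 (log2 fold change 0.84, SE 0.17) and Slc16a1 (log2 fold change -0.84, SE 0.055) moved apart as well, with 286, 261 and 274 CPM in P2- and 164, 149.6 and 147 in P2+ for Slc16a1. The summed CPM of the list was lower in P2+ in each pair (0.925, 0.929 and 0.91 times) although its median was above 0.

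Haem synthesis and iron handling fell, with 19 of 25 genes lower and 1 higher (median -0.68). Slc40a1, the iron exporter ferroportin, had 138, 93.4 and 132 CPM in P2- and 6.61, 7.23 and 5.72 in P2+ and no overlap (log2 fold change -4.19, SE 0.13, edgeR adjusted p = 2.58e-11). Blvrb, a biliverdin reductase of red cells, had 49.7, 45.3 and 49.2 CPM in P2- and 7.62, 10.3 and 8.15 in P2+ (log2 fold change -2.47, SE 0.13, edgeR adjusted p = 3.86e-09). Hmox1, the haem oxygenase, was the member that rose (log2 fold change 1.17, SE 0.37), at no more than 6.94 CPM and not without the block (edgeR adjusted p = 0.182). No gene of the list rose without pair 1 or without pair 3, and 2 rose without pair 2. Antioxidant enzymes and metallothioneins fell in 17 of 29 cases and rose in 4 (median -0.41). Mt1, a metal-binding metallothionein, had 77.7, 89.8 and 99.4 CPM in P2- and 9.88, 9.15 and 9.98 in P2+ (log2 fold change -3.2, SE 0.10, edgeR adjusted p = 3.19e-11). Mt2 was at 88, 57 and 189 counts in P2- and at 0 in all P2+ libraries, at least 37.2-fold lower. Gstm5, a glutathione transferase, had 39.5, 40.0 and 40.6 CPM in P2- and 6.53, 8.81 and 10.2 in P2+ (log2 fold change -2.24, SE 0.14, edgeR adjusted p = 1.69e-08).

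Among organelle and lipid genes, most of the 23 cholesterol synthesis genes (17) were not called, 5 rose and 1 fell (median 0.19). The 21.7% that rose and 4.35% that fell compare with 25.9% and 24.8% of all genes tested. Stard4, a sterol carrier, rose, with 182, 161 and 180.3 CPM in P2- and 353, 291 and 376 in P2+ (log2 fold change 0.96, SE 0.057, edgeR adjusted p = 1.13e-08). Without pair 2, 8 of them rose and none fell, and none fell without pair 1. Of 24 genes of folding in the endoplasmic reticulum, 14 rose and 2 fell (median 0.26). Edem1, which removes misfolded glycoproteins, had 72.5, 68.9 and 68.5 CPM in P2- and 119, 103 and 118 in P2+ (log2 fold change 0.69, SE 0.068, edgeR adjusted p = 1.80e-06), and without the block 8 of the list rose. Of 32 lysosomal genes, 17 rose and 6 fell (median 0.18). Grn, progranulin, had 43.7, 37.4 and 50.0 CPM in P2- and 102, 91.9 and 117 in P2+ (log2 fold change 1.25, SE 0.071, edgeR adjusted p = 7.29e-09), and Lipa, the lysosomal acid lipase, had 110.0, 94.8 and 105 CPM in P2- and 58.1, 48.2 and 54.9 in P2+ (log2 fold change -0.94, SE 0.068, edgeR adjusted p = 8.29e-08).

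**Figure D4:**
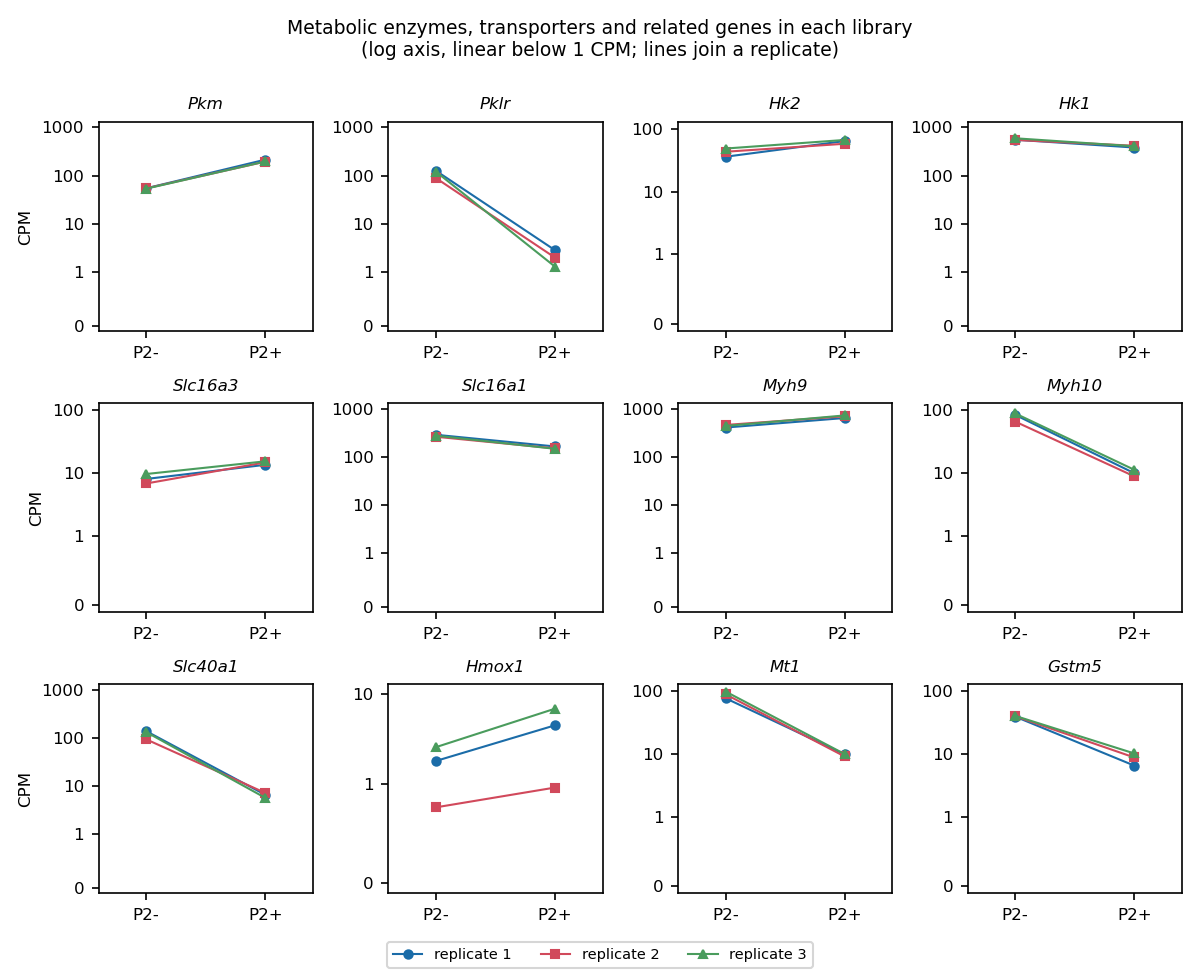
CPM of 12 genes in each library (symmetric log axis, linear below 1 CPM), with a line joining the P2- and P2+ library of each replicate. Pkm rises as Pklr falls from at least 89.2 to at most 2.85 CPM, Hk2 and Hk1 and the lactate carriers Slc16a3 and Slc16a1 diverge, Myh9 rises as Myh10 falls, and Slc40a1, Mt1 and Gstm5 fall in all 3 pairs.

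The cytoskeleton and signalling genes of P2+ PreMegEs were mostly raised. Of 57 genes of the actin cytoskeleton and its regulators, 36 rose and 10 fell (median 0.35), and without the block 6 fell. Coro2a, an actin-binding coronin, had 24.1, 18.1 and 33.8 CPM in P2- and 238, 182 and 261 in P2+ (log2 fold change 3.18, SE 0.083, edgeR adjusted p = 5.12e-12). Tmsb4x, thymosin β4, which holds actin monomers, had 88.2, 127 and 91.4 CPM in P2- and 365, 414 and 429 in P2+ (log2 fold change 1.99, SE 0.082, edgeR adjusted p = 2.84e-10). Neither overlapped between fractions. The nonmuscle myosin heavy chains diverged, with 405, 458 and 437 CPM in P2- and 639, 693 and 722 in P2+ for Myh9 (log2 fold change 0.66, SE 0.049, edgeR adjusted p = 1.01e-07) and 84.3, 65.8 and 88.9 CPM in P2- and 9.88, 8.81 and 11.2 in P2+ for Myh10 (log2 fold change -2.99, SE 0.099, edgeR adjusted p = 3.90e-11). Per length, Myh9 stood at 33.5 RPKM and Myh10 at 7.62 in P2-, and at 53 and 0.953 in P2+.

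Of 36 genes of granule formation and exocytosis, 17 rose, 9 at least 2-fold, and 6 fell (median 0.20), and 3 fell without pair 1 or without the block. Slc35d3, a transporter needed for platelet dense granules, had 3.14, 4.49 and 7.17 CPM in P2- and 57.9, 67.4 and 94.3 in P2+ (log2 fold change 3.9, SE 0.12, edgeR adjusted p = 2.53e-11). Its fractions did not overlap. 5 genes of the HPS complexes, which build lysosome-related organelles, were not called (Hps1, Hps3, Hps4, Hps5 and Hps6, log2 fold changes of -0.22 to 0.11). Of 53 phosphoinositide and calcium signalling genes, 33 rose, 18 at least 2-fold, and 11 fell (median 0.53), and 7 fell without pair 1 and 4 without the block. Pde10a, a cyclic nucleotide phosphodiesterase, had 0.864, 1.24 and 2.02 CPM in P2- and 23.1, 27.6 and 45.9 in P2+ (log2 fold change 4.55, SE 0.18, edgeR adjusted p = 2.48e-10). Camk1d, a calmodulin-dependent kinase, had 105, 86.7 and 102 CPM in P2- and 41.3, 36.3 and 40.5 in P2+ (log2 fold change -1.32, SE 0.074, edgeR adjusted p = 6.03e-09). Pde10a was at or below 2.02 CPM in P2-, so its fold change rests on few counts there.

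Genes first described in axon guidance split, with 13 of 26 higher, 10 of them at least 2-fold, and 6 lower, 4 at least 2-fold (median 0.26; 1.20 over 58 genes with no filter beyond 1 count). Plxnd1, a semaphorin receptor, had 7.46, 7.07 and 7.03 CPM in P2- and 32, 27.2 and 33.9 in P2+ (log2 fold change 2.11, SE 0.14, edgeR adjusted p = 3.64e-08), while its relative Plxna1 had 67.7, 59.6 and 61.2 CPM in P2- and 32.1, 30.9 and 33.1 in P2+ (log2 fold change -0.97, SE 0.087, edgeR adjusted p = 6.89e-07). Robo3, a Slit receptor family member, had 1.65, 8.79 and 4.04 CPM in P2- and 24.6, 52.2 and 28.5 in P2+ (log2 fold change 2.96, SE 0.20, edgeR adjusted p = 3.68e-08), with both libraries of replicate 2 the highest of their fraction. Ntn4, a netrin, fell (log2 fold change -1.45, SE 0.18). Of 33 genes of the TGF-β, Notch and Wnt pathways, 17 rose and 5 fell (median 0.29). Nrarp, a target and inhibitor of Notch, had 8.72, 7.45 and 6.41 CPM in P2- and 24.4, 22.9 and 26.9 in P2+ (log2 fold change 1.72, SE 0.16, edgeR adjusted p = 9.62e-07), and Fzd7, a Wnt receptor, had 159, 108 and 139 CPM in P2- and 49.8, 45.5 and 39.6 in P2+ (log2 fold change -1.58, SE 0.094, edgeR adjusted p = 1.22e-08).

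Innate immune pathways had no common direction. Of 35 NF-κB and Toll-like receptor genes, 12 rose, 4 fell and 19 were not called (median 0.04). Their summed level was below that of P2-, at 0.794, 0.776 and 0.810 times in the 3 pairs, although the median was above 0. Tlr2 and Tlr4, receptors for bacterial products, rose, with 4.87, 4.68 and 3.9 CPM in P2- and 20.9, 17.5 and 19.1 in P2+ for Tlr2 (log2 fold change 2.1, SE 0.18, edgeR adjusted p = 3.75e-07) and 3.69, 2.96 and 3.83 CPM in P2- and 21.2, 12.2 and 17 in P2+ for Tlr4 (log2 fold change 2.24, SE 0.20, edgeR adjusted p = 5.73e-07). Tnfaip2, a gene induced by tumour necrosis factor, fell, with 708, 602 and 615 CPM in P2- and 119.5, 118 and 112 in P2+ (log2 fold change -2.46, SE 0.058, edgeR adjusted p = 2.10e-12). The core members Nfkb1, Rela and Nfkbia differed by 0.071, -0.077 and -0.14 on the log2 scale and were not called. Of 37 interferon response genes, 8 rose, 8 fell and 21 were not called (median -0.03), with 5 falling without the block. Here the summed level was above that of P2-, at 1.09, 1.04 and 1.01 times. Ifi47, an interferon-inducible GTPase, had 122, 98.6 and 139 CPM in P2- and 275, 202 and 287 in P2+ (log2 fold change 1.09, SE 0.058, edgeR adjusted p = 3.69e-09), and Irf7, a factor of the same response, had 33.1, 29.4 and 46.3 CPM in P2- and 18, 16.4 and 17.8 in P2+ (log2 fold change -1.04, SE 0.13, edgeR adjusted p = 1.52e-05). Of 22 MHC genes, 8 rose and 2 fell (median 0.13), whereas 2 rose without pair 1, 4 without pair 2, 5 without pair 3 and 3 without the block, and 1 fell without the block, without pair 2 or without pair 3. H2-DMa, which loads peptides on class II molecules, rose (log2 fold change 0.77, SE 0.091), and so by less did the classical class I genes H2-K1 and H2-D1 (log2 fold changes 0.13 and 0.12), whose libraries overlapped and whose calls were lost without the block. Of 6 genes of mature T, NK and B lymphocytes, 3 rose, among them Nkg7, a gene of cytotoxic granules, with 107, 125 and 87.3 CPM in P2- and 203, 253 and 169.9 in P2+ (log2 fold change 0.97, SE 0.057, edgeR adjusted p = 1.11e-08), and 5 of the 6 rose without pair 3.

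The immediate early genes, which are switched on within minutes of stimulation, lost all their calls without the pairing. All 26 genes of the list tested were highest in replicate 2 of both fractions, with a median ratio to the mean of the other replicates of 21.5 in P2- and 10.3 in P2+. With the pair as a block 12 rose, 3 fell and 11 were not called (median 0.43), and without it none was called, by edgeR's quasi-likelihood or exact test, or at an unadjusted p under 0.05 in the former (0 of 26). DESeq2 with the block called 7 higher and 1 lower (median 0.74). The medians within pairs were 1.14, -0.14 and 1.12, so pair 2 lay apart from the other pairs. Klf6, a Krüppel-like factor, had 27.9, 465 and 31.2 CPM in P2- and 82.4, 871 and 75.6 in P2+. It was higher in P2+ in each pair although the fractions overlapped over all libraries (log2 fold change 1.2, SE 0.095, edgeR adjusted p = 2.01e-07, and edgeR adjusted p = 0.566 without the block). Egr1, a zinc finger factor, had 25.8, 3022 and 27 CPM in P2- and 11, 1312 and 8.08 in P2+. It was lower in P2+ in each pair (log2 fold change -1.32, SE 0.082, edgeR adjusted p = 1.79e-08, and edgeR adjusted p = 0.68 without the block).

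Jun, a subunit of AP-1, had 4.79, 2383 and 28.2 CPM in P2- and 14.6, 2247 and 76.5 in P2+. It was called higher (log2 fold change 0.65, SE 0.22, edgeR adjusted p = 0.0264), with P2+ higher in pairs 1 and 3 and not in pair 2, and without pair 2 the log2 fold change was 1.49. Fos, the partner of Jun, had 0.314, 1320.0 and 11.4 CPM in P2- and 0.921, 900.1 and 18.5 in P2+ and was not called (log2 fold change -0.18, SE 0.18); without pair 2 it was 0.81. Zfp36, which destabilises inflammatory mRNAs, had 12, 892 and 18.3 CPM in P2- and 38.1, 672 and 49.2 in P2+ and was not called (log2 fold change 0.57, SE 0.28), against 1.53 without pair 2. Jun was not called without pair 1 or without pair 3 (log2 fold changes 0.55 and 0.24), and Fos was called lower without pair 3 (-0.51). Without pair 1, 7 of the 26 genes rose, without pair 2, 17 rose and 1 fell, and without pair 3, 7 fell instead of 3.

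The largest changes called with the block and not without it were in 5 genes. Rgs2, a regulator of G protein signalling, had 3.38, 33.4 and 3.34 CPM in P2- and 17.8, 114 and 16.1 in P2+ (log2 fold change 2.04, SE 0.14, edgeR adjusted p = 4.31e-08). Rgs1, of the same family, had 13.9, 80.3 and 17 CPM in P2- and 39.1, 326 and 58 in P2+ (log2 fold change 1.81, SE 0.094, edgeR adjusted p = 2.85e-09). For both genes the replicate 2 libraries were the highest of their fraction, and P2+ was higher in each pair. Hspa1b, an inducible heat shock protein, had 0, 45.3 and 9.47 CPM in P2- and 0.0837, 12 and 2.74 in P2+. It was called lower (log2 fold change -1.83, SE 0.24, edgeR adjusted p = 2.72e-05), with pairs 2 and 3 lower and pair 1 near 0 in both libraries. Arl4c, a small GTPase, rose (log2 fold change 1.92, SE 0.13), as did Mpeg1, perforin-2 of phagocytes (log2 fold change 1.42, SE 0.27), the latter with P2+ replicate 1 at 41.1 CPM and the others at 10.9 and 4.34, and not called without pair 1.

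**Figure D5:**
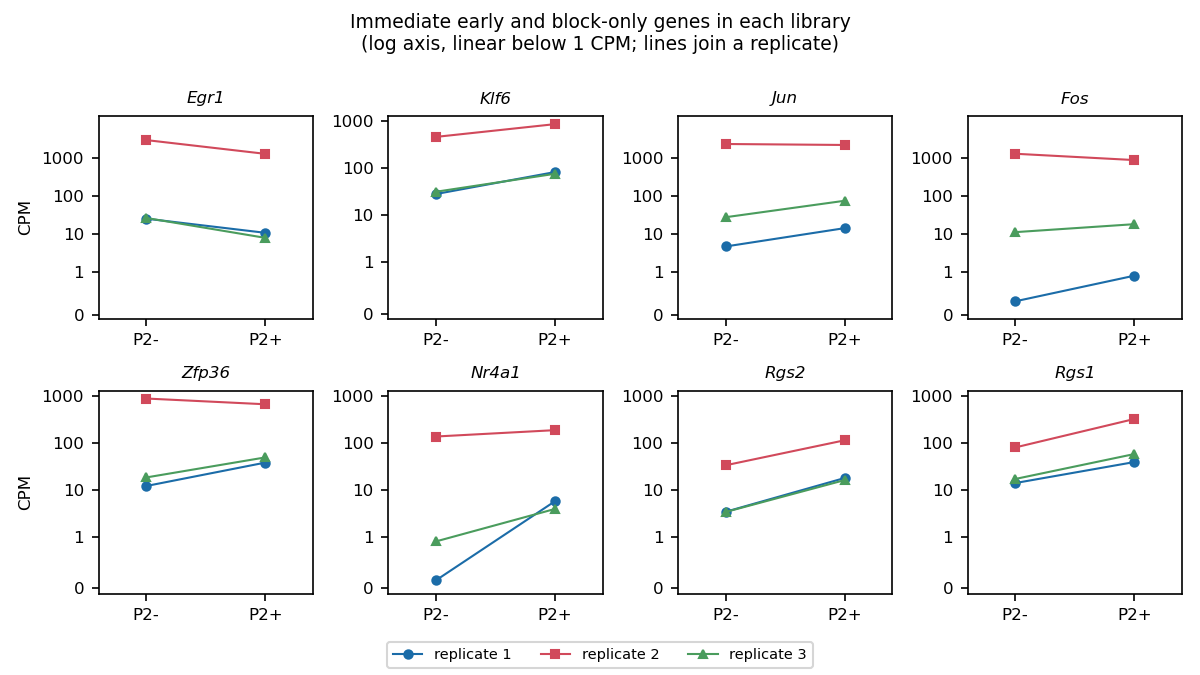
CPM of 8 genes in each library (symmetric log axis, linear below 1 CPM), with a line joining the P2- and P2+ library of each replicate. Replicate 2 lies above the other replicates in every panel, Egr1 falls and Klf6, Rgs2 and Rgs1 rise in all 3 pairs, and Jun, Fos and Zfp36 rise in pairs 1 and 3 but not in pair 2.

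Over all genes, the same libraries called 6513 genes with the block and 4762 without it. Of these, 4758 were shared, 1755 were called with the block alone and 4 without it alone. The median size of the log2 fold change was 0.55 over all genes called with the block and 0.29 over those called with it alone. The coefficient of biological variation was 7.99% with the block and 18.1% without it, and the median standard error of a log2 fold change 0.11 against 0.14.

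Outside the lead lists, the largest changes at 10 CPM or more were spread over transporters, enzymes and secreted proteins. Among the 10 largest rises, Tgfbi, a matrix protein induced by TGF-β, had 0.55, 0.0956 and 0.696 CPM in P2- and 10.7, 11.5 and 14.2 in P2+ (log2 fold change 4.69, SE 0.36, edgeR adjusted p = 1.47e-07). Kcnj5, an inward rectifier potassium channel, had 3.85, 3.73 and 8.91 CPM in P2- and 82.3, 85.5 and 109.6 in P2+ (log2 fold change 4.08, SE 0.15, edgeR adjusted p = 1.00e-10). Timp3, an inhibitor of metalloproteinases, had 1.02, 2.2 and 5.36 CPM in P2- and 24.3, 27.5 and 56.9 in P2+ (log2 fold change 3.72, SE 0.19, edgeR adjusted p = 2.86e-09). Each rose in all 3 pairs without overlap. The others were Pde10a, Il6ra and Cxcr2, given above, and Itgb6, Pdgfb, Plekhg3 and BC035044 (log2 fold changes of 3.90, 3.80, 3.67 and 3.64). Several of these fold changes rest on few counts in P2-. Tgfbi had 7, 1 and 10 counts there, the 1 count being under the limit of 3, and differed by 3.95, 5.54 and 4.07 on the log2 scale in pairs 1, 2 and 3. Pdgfb had 9, 0 and 45 counts in P2- and pair differences of 4.30, 6.29 and 2.66. The lowest P2- library of Il6ra had 6 counts, that of Itgb6 and of Plekhg3 had 4, and that of BC035044 had 9. Plekhg3 overlaps Sptb on the other strand. Exons of 29.9% of all genes tested overlap another gene on the other strand, and whether the counting used the strand is not given in the sources used here. Among the genes described with values, this holds for Coro2a, Csrnp1, Cx3cr1, Dusp1, Egfl7, F13a1, Fcgr2b, Gadd45a, Grn, Gstm5, H2-DMa, Hk1, Hps1, Hps3, Hps4, Ifi47, Il6ra, Irf7, Jun, Lyl1, Mecom, Mpo, Mt2, Nfia, Nrarp, Pklr, Plxna1, Prc1, Ptgs1, Rrp9, Runx1, Slc2a1, Slc25a21, Acmsd, Sphk1, Timp3, Tk1, Tnfaip2, Txnip, Xist and Zfp36, whose levels are uncertain to that extent.

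Among the 10 largest falls, Atp1b2, a sodium pump subunit, was the most abundant, with 749, 795 and 746 CPM in P2- and 25.6, 31.7 and 14.4 in P2+ (log2 fold change -5.02, SE 0.14, edgeR adjusted p = 7.59e-12). Slc38a5, a glutamine transporter, had 50.6, 46.9 and 47.6 CPM in P2- and 1.0, 1.65 and 0.686 in P2+ (log2 fold change -5.41, SE 0.20, edgeR adjusted p = 1.09e-10). Prss50, a serine protease, had 35.4, 19.5 and 43.9 CPM in P2- and 1.0, 0.482 and 0.686 in P2+ (log2 fold change -5.49, SE 0.22, edgeR adjusted p = 1.96e-10). Slc26a1, a sulphate transporter, was at 236, 101 and 200 counts in P2- and 3, 0 and 0 in P2+, a ratio of 189 between the fractions, 64.2 to 918 (95% counting interval), and its exons overlap Idua on the other strand. Slc25a21, a mitochondrial carrier, and Acmsd, of tryptophan breakdown, fell by 5.20 and 4.59 on the log2 scale. Prss50, Slc38a5, Slc25a21 and Acmsd had between 5 and 24 counts in each P2+ library. Pklr, Sphk1, Zbtb46 and Slc40a1 complete the list. All 10 fell in every pair.

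The windows at the starts of the leading genes that held a searched motif are given as sequence context, by the rule of the largest 2 rises and falls. Tgfbi lies at chr13:56609336-56609635 and Pde10a at chr17:8801495-8801794, both on the plus strand, Slc26a1 at chr5:108675316-108675615 on the minus strand and Sphk1 at chr11:116530850-116531149 on the plus strand (RefSeq starts, GRCm38.p6, the most upstream start with a match).
Tgfbi: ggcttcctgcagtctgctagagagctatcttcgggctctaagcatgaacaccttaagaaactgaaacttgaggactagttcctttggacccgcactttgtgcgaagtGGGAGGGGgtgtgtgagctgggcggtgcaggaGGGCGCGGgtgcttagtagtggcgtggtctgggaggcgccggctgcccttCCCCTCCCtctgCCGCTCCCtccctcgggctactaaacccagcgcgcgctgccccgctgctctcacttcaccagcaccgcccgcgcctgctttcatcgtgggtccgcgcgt
Pde10a: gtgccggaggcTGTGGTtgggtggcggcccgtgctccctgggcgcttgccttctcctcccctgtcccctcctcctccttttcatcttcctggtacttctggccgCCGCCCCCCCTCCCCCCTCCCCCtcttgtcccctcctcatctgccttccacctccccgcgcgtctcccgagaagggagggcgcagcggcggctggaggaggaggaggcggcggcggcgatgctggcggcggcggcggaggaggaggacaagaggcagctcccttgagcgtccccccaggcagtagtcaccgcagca
Slc26a1: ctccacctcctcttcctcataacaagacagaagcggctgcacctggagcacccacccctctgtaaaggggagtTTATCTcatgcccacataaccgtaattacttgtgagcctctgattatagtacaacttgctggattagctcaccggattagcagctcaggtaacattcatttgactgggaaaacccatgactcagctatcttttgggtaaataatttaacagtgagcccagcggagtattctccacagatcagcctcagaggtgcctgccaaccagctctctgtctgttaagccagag
Sphk1: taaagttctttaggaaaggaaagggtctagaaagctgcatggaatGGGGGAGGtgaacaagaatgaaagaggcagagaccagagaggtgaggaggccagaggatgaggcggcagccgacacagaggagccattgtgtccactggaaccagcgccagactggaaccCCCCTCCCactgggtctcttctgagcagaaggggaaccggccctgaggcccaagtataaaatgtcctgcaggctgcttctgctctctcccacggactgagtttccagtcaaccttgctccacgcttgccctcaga
Capitals again mark motif matches. Tgfbi held 4 KLF matches and Sphk1 held 2, Pde10a held 5 overlapping KLF matches and 1 RUNX match 239 bases before the start, and Slc26a1 held 1 GATA match 177 bases before the start. Only 9322 of the 12836 genes tested (72.6%) had a window. A comparison of motif shares between genes that rose and genes that fell would cover only these genes and is not given.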

How the data were processed

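RNA-Seq counts of P2+ and P2- PreMegEs were analysed, 3 libraries per fraction, each pooling 3 mice. Libraries were poly(A) selected and strand-specific. For alignment to GRCm38 the authors used Bowtie2, and featureCounts gave the raw counts per Ensembl gene that were deposited. Whether strand was used, and how reads with several alignments were counted, is not given in the sources used here.

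The filter kept genes reaching 1 CPM in 3 or more of the 6 libraries, TMM factors were computed, and P2+ was compared with P2- by the quasi-likelihood test of edgeR 4.0.16 in R 4.3.3 with the replicate as a block, Benjamini-Hochberg adjustment over all 12836 genes and a threshold of 0.05. The labels do not say what a replicate number shares. The plan of the comparison took it to pair the libraries. Deviations from the fraction means correlated at 0.402, 0.590 and 0.432 for the same number and between -0.386 and 0.054 otherwise. Deviations from a mean of 3 libraries sum to 0, so these correlations are not independent of each other. P-values measure the spread between these 3 pairs. CPM values are on the TMM scale, and RPKM are per exonic length.

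Named were, per list, up to 2 largest rises and 2 largest falls among called genes at 10 CPM or more with the same direction in all 3 pairs, the 10 largest rises and falls over all genes outside the megakaryocyte and erythroid lists, the largest 5 calls made only with the block, and immediate early genes. Some genes that this rule names are not reported here. Other genes given as examples were chosen after their values were seen. The members and lists were chosen with earlier results of these data known, and lists are described by counts and medians without a test. Promoter windows came from RefSeq by gene symbol. The fit was tested on simulated data. Alternatives were another normalization, other filters, DESeq2 1.42.0, the exact test of edgeR, no block and leaving out each pair. List counts under these were added after seeing the data.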

Additional observations from a re-analysis of the deposited data

How the results depend on the processing

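Without the replicate block, 4762 genes were called, against 6513 with the pairing kept, and 4758 were in both. With edgeR's exact test without the block 4244 genes were called, of which 1814 were lower in P2+ (3189 in the paired fit). DESeq2 with the block called 5432. Among lists whose counts moved by over 1.5 times with it, 21 respiratory genes fell, and 5 p53 targets and 5 MHC genes rose. The 2-fold calls moved most with a filter of 5 CPM, from 1333 higher and 444 lower to 889 and 301 (1224 and 402 without the block). Leaving out 1 pair gave 5165 to 5837 calls, with 2694 to 3062 higher, 2471 to 2775 lower, 1173 to 1367 higher by 2-fold and 403 to 459 lower by 2-fold. DESeq2 size factors, upper quartile scaling and library totals gave 6535, 6484 and 6433 calls, a filter of 5 CPM 5834 of 10842 genes, no filter beyond 1 count 6759 of 19367 and protein-coding genes alone 6133 of 11308. No gene called in 2 of these fits changed direction against the blocked fit, and between 74.1% and 77.0% of 2-fold calls were higher in P2+. Of the named genes that were called, Jun changed sign without the block (log2 fold change -0.046 and, by the exact test, -0.047). Of those not called, Zfp36, Dusp1 and Csrnp1 did so too (-0.28, -0.38 and -0.20 without the block). The range over leaving out 1 pair was -0.51 to 0.013 for Ier2 and -0.51 to 0.81 for Fos, the upper values being those without replicate 2, and the cause was not tested. The median of the interferon list was -0.03 and changed sign with library totals and without replicate 3, and no other list median changed sign. With no filter beyond 1 count, 58 axon guidance genes were tested and their median was 1.20, against 0.26 over 26, with 15 higher and 6 lower. Other list medians that moved by over 1.5 times ranged from 0.69 to 1.88 (neutrophil genes), -0.30 to -0.015 (p53 targets), 0.01 to 0.99 (immediate early genes), 0.11 to 0.40 (glycolysis), 0.012 to 0.13 (NF-kB pathway) and -0.11 to 0.02 (interferon list). The median was 0.12 for cholesterol synthesis without replicate 3, and with a filter of 5 CPM it was 0.29 for cytokine receptors and 0.22 for histones. Depth limits genes near the floor of 3 counts.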
